A study of Mus musculus with 4 samples.

Results

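The genes of the mitochondrial genome were examined in the lungs of mice carrying metastases of 4T1, a mouse triple-negative breast cancer (TNBC) cell line. They were chosen as all rows of the deposited gene table whose symbol begins with mt-, which gave 37 of 56748 genes: 13 mRNA genes, 2 rRNA genes and 22 tRNA genes. Bulk RNA sequencing covered 2 libraries of mice given saline and 2 libraries of mice given cmLumiOpto/PARPi. All were BALB/cJ female mice injected through the tail vein at 7 weeks of age with 4T1 cells that carry a firefly luciferase. The treated mice received CD276 mAb-Exo-AAV, an exosome-wrapped viral vector aimed at CD276 on the tumor cells. The vector encodes cmLumiOpto, a light-gated CoChR channel placed in the inner mitochondrial membrane together with a luciferase that lights it, under a cfos promoter. They also received the luciferase substrate ViviRen at 2 mg/kg and the PARP inhibitor (PARPi) olaparib at 50 mg/kg over 3 weeks, so the vector, the substrate and olaparib cannot be told apart here. The study describes the material as lung tissue with metastases, while the labels describe harvested tumor cells and name PBS beside saline for the controls. In bulk RNA, fewer cells of a type and less RNA per cell cannot be told apart, and the RNA of tumor and host cells is counted together.

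The mitochondrial genome is a small circle of DNA present in many copies in each cell. It is transcribed on both strands into long precursors, and the tRNAs that lie between the longer genes are cut out to free the mRNAs and rRNAs. Its mRNAs encode membrane subunits of respiratory complexes I, III and IV and of the ATP synthase (complex V), and all proteins that copy, transcribe and process it are imported from nuclear genes.

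Counts summed to between 15263375 and 16755228 per library, and 3 counts, taken as the smallest detected level, corresponded to 0.173 to 0.204 CPM (counts scaled to a common library size, by TMM normalization). Alveolar type 2 cell markers summed to 1719 and 464 CPM in the saline libraries and 8328 and 2973 CPM in the treated libraries, and fibroblast markers to 3684 and 2494 CPM against 1120 and 1223 CPM. The fibroblast sum was led by Col1a1 and Col1a2. Of the 6 fibroblast markers, 5 were lower in both treated libraries, while Tcf21 was higher in both (log2 fold change 2.61). Keratins and other epithelial markers, listed for the tumor but not specific to it in lung, summed to 2692 to 3850 CPM in all 4 libraries, with Krt5 at 0 in saline replicate 2. Their sum is therefore no measure of tumor content. The 2 treated libraries stood farther apart from each other (chi-square over degrees of freedom 41.1) than the 2 saline libraries (24.1).

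The positions of the 37 genes in the table were those of the mitochondrial chromosome of GRCm38 in GENCODE M21 for 37 of 37 genes, ending at base 15422. On the strand that carries most genes lie 28 of them, and 9 lie on the other strand (8 tRNA genes and mt-Nd6). Several sequences bear on how reads could be assigned to these genes, all read from the GENCODE M21 transcripts of GRCm38 and printed 5′ to 3′ in the direction of the gene. mt-Atp8 (bases 7766 to 7969) and mt-Atp6 (bases 7927 to 8607) overlap by 43 bases, in capitals within chrM:7897-7999, + strand.
mt-Atp8/mt-Atp6: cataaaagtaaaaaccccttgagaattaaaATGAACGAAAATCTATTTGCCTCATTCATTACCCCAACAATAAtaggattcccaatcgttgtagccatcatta
mt-Nd4l (chrM:9877-10173, + strand) ends in 7 bases that also begin mt-Nd4, in capitals. It is shown whole because a nuclear pseudogene, Gm10222, is identical to its first 294 bases.
mt-Nd4l: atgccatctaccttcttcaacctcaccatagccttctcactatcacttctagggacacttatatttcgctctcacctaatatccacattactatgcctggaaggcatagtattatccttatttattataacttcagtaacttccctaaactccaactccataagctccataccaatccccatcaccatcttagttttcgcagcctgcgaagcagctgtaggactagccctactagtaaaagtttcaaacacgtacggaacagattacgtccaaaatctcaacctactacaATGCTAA

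In all, 15 annotated nuclear genes matched mitochondrial mRNA genes over at least 200 bases at 90% identity or more, and 7 of them, all on chromosome 1, did so at 99% or more. The table places these 7 next to each other on the minus strand between bases 24650616 and 24655278. Those chromosome 1 positions are given as in the table, whose build the processing notes name as mm39 and the study as GRCm38. Gm28439 matches 876 bases of mt-Nd4, Gm28437 783 bases of mt-Co3, Gm28661 681 bases of mt-Co2, Gm10925 678 bases of mt-Atp6 and Gm10222 294 bases of mt-Nd4l, each without a difference. Gm28438 differs from mt-Nd3 at 1 of 345 bases and Gm29216 from mt-Co1 at 1 of 483 bases. The stretches that hold those differences are shown to make plain how little sets the copies apart, with the differing bases in capitals, which for mt-Co1 are those of either copy. For mt-Nd3 the stretch is chrM:9459-9491 and for mt-Co1 chrM:6390-6423, both on the + strand. Gm13340, a less similar copy of mt-Co1 on chromosome 2 (97.6% identity), is shown with them.
mt-Nd3: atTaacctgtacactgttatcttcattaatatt
Gm28438: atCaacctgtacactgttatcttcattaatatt
mt-Co1: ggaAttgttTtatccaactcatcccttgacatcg
Gm29216: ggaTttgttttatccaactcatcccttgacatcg
Gm13340: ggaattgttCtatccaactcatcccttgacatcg

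Reads from the shared stretches map equally well to both places. The counts of mt-Co2, mt-Atp6, mt-Co3, mt-Nd3 and mt-Nd4l, each over 98% covered by such a copy, are therefore uncertain. So is part of those of mt-Nd4 (63.6% covered), mt-Co1 (31.3% covered) and mt-Atp8 (21.1% covered, where it overlaps mt-Atp6). How such reads were counted, and whether the libraries kept strand, is not given in the sources used here. The levels of these 8 mRNA genes below, and the fold changes of the 7 tested ones, are those of the table.

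Mitochondrial genes took 1.13% of all counts in saline replicate 1 (95% Wilson interval 1.13 to 1.14) and 1.17% in saline replicate 2 (1.17 to 1.18). In the cmLumiOpto/PARPi libraries the share was 2.20% in replicate 1 (2.20 to 2.21) and 1.34% in replicate 2 (1.33 to 1.35). Each treated library had a larger share than either saline library, and the first of them by far the largest. Wilson intervals cover counting error only. The mean share was 1.15% ± 0.026 (SD, n = 2) after saline and 1.77% ± 0.609 (SD, n = 2) after treatment, a ratio of 1.54. An exact permutation test over the 4 libraries gave a two-sided p = 0.3333, the smallest that 2 libraries against 2 allow. The difference of 0.618 percentage points was 0.187 without treated replicate 1 and 1.05 without treated replicate 2. The 13 mRNA genes held nearly all of these counts, with 1.09%, 1.14%, 2.13% and 1.29% of the library in saline replicates 1 and 2 and treated replicates 1 and 2, which is the order used for 4 values throughout. The rRNA genes took 0.0385%, 0.0257%, 0.0701% and 0.0457%, again higher in both treated libraries. For the tRNA genes the shares of 0.00257%, 0.00289%, 0.00381% and 0.00224% overlapped between the groups. The RNA had been selected with poly-T beads, so these shares describe the polyadenylated RNA recovered and not total mitochondrial RNA.

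**Figure D1:**
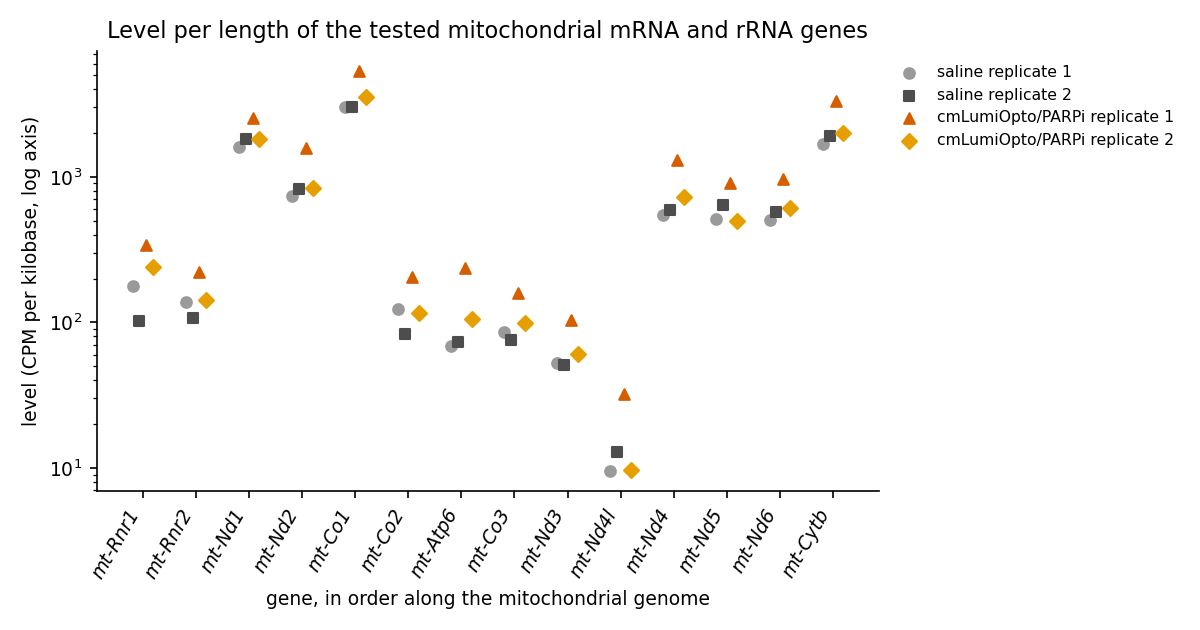
Level per length, in CPM per kilobase on a log axis, of the 12 tested mRNA genes and the 2 rRNA genes in each of the 4 libraries, in order along the mitochondrial genome. cmLumiOpto/PARPi replicate 1 (triangles) is the highest library for every one of the 14 genes, and treated replicate 2 (diamonds) lies closer to the saline libraries, though for mt-Rnr1 (238 against 176 and 102 CPM per kilobase) and mt-Atp6 (106 against at most 73.4) it also stands apart from both.

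Of the 37 genes, 21 passed the filter on low counts (12 mRNA, 2 rRNA and 7 tRNA genes) and were tested. The other 16, mt-Atp8 and 15 tRNA genes, had at most 18 counts in a library. The main fit used edgeR's quasi-likelihood test on the filtered genes, without a replicate term. In it, no mitochondrial gene had an adjusted p under 0.05, and neither did any of the 15167 tested genes (0%). Some edgeR fits with other settings did call genes, as given at the end. At an unadjusted p under 0.05, 4 mitochondrial genes were higher after treatment (mt-Atp6, mt-Rnr1, mt-Nd4 and mt-Co3), against 9.21% of all tested genes, and 0 were lower, against 12.0%. DESeq2 put 3 of them under an adjusted p of 0.05 (mt-Atp6 at 0.0117, mt-Rnr1 at 0.0127 and mt-Nd4 at 0.0404), where it called 7.32% of 13402 genes. The mRNA genes among the 4 (mt-Atp6, mt-Nd4 and mt-Co3) all have near-identical nuclear copies, so their counts are uncertain in whole or in part. Of the 5 mRNA genes without such a copy, 0 were higher at an unadjusted p under 0.05 with edgeR. Their unadjusted edgeR p ran from 0.0638 for mt-Nd6 to 0.422 for mt-Nd5. Beside 9.21% of all tested genes, 0 of 5 does not set these genes apart from those with a copy. The count of 4 became 2 without saline replicate 2, 2 without treated replicate 1 and 14 without treated replicate 2. In 10 genes the treated libraries were both higher than either saline library and in 2 genes both lower, against 27.4% and 27.8% of all tested genes. Of the 21 genes, 18 had a log2 fold change above 0, against 52.0% of all tested genes. The median was 0.57, beside 0.02 over all tested genes, and was 0.13 without treated replicate 1. The fold changes are those of the fit, and the p-values measure only the spread between these 4 libraries, since the labels do not say more of how the replicates were obtained.

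Among the 7 genes of complex I, the entry point of electrons from NADH, all log2 fold changes were positive, against 52.0% of all tested genes. In 4 of them both treated libraries were above both saline libraries and in 0 both below. Over all tested genes these shares were 27.4% and 27.8%. mt-Nd1 (bases 2751 to 3707) stood at 1532 and 1742 CPM after saline and at 2426 and 1727 CPM after treatment. Its second treated library lay between the saline libraries (log2 fold change 0.34 ± 0.22 SE, edgeR adjusted p = 0.411). mt-Nd2 (bases 3914 to 4951) stood at 764, 857, 1647 and 875 CPM. Both treated libraries were above both saline libraries, the second by little, and the log2 fold change was 0.64 ± 0.31 (SE; edgeR adjusted p = 0.296). mt-Nd4 (bases 10167 to 11544) was measured at 747, 812, 1805 and 995 CPM. It was the complex I gene with the smallest p, higher in both treated libraries with a log2 fold change of 0.84 ± 0.30 (SE; edgeR adjusted p = 0.200), or 0.35 without treated replicate 1.

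mt-Nd5 (bases 11742 to 13565) had 939, 1172, 1641 and 901 CPM. Treated replicate 2 was the lowest library and treated replicate 1 the highest, so the groups overlapped and the direction of the difference depended on 1 library (log2 fold change 0.27 ± 0.31 SE, and -0.23 without treated replicate 1). mt-Nd6 is the only mRNA gene of the opposite strand (bases 13552 to 14070) and shares 14 bases with the end of mt-Nd5. Its levels were 260, 298, 501 and 318 CPM, higher in both treated libraries with a log2 fold change of 0.55 ± 0.24 (SE; edgeR adjusted p = 0.259). The ratio of mt-Nd6 to mt-Cytb counts was 0.136, 0.137, 0.133 and 0.139, and so varied little between libraries whose summed mitochondrial share differed widely. The ratio of mt-Nd6 to the summed counts of the heavy-strand mRNA genes was 0.0242, 0.0257, 0.0250 and 0.0254, with overlapping groups in both ratios (exact two-sided permutation p = 1 for each). As the use of strand is not known, counts on mt-Nd6 may include reads from the opposite strand.

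The other complex I genes, mt-Nd3 (bases 9459 to 9806) and mt-Nd4l, belonged to those covered by nuclear copies and had few counts. mt-Nd3 had 294, 262, 629 and 349 counts, higher in both treated libraries with a log2 fold change of 0.66 ± 0.29 (SE; edgeR adjusted p = 0.257). mt-Nd4l had 45, 56, 165 and 48 counts. Only its first treated library stood apart from the rest, and its log2 fold change of 0.90 ± 0.60 (SE) became -0.20 without that library. mt-Nd4l and mt-Nd4 are read from 1 transcript in which the genes overlap, and the ratio of their counts was 0.00378, 0.00470, 0.00526 and 0.00290, with overlapping groups.

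Complex III, which passes electrons to cytochrome c, has 1 mitochondrial gene, mt-Cytb (bases 14145 to 15288), for cytochrome b. Its levels were 1911 and 2180 CPM after saline and 3772 and 2288 CPM after treatment, so the groups did not overlap but treated replicate 2 exceeded the higher saline library by little. The log2 fold change was 0.57 ± 0.28 (SE; edgeR adjusted p = 0.297), and 0.16 without treated replicate 1. mt-Cytb has no near-identical nuclear copy among the annotated transcripts searched.

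Complex IV, which reduces oxygen, has its 3 core subunits from mitochondrial genes. mt-Co1 (bases 5328 to 6872), the catalytic subunit, had the most counts of all 37 genes, at 4660, 4640, 8267 and 5484 CPM. The saline libraries were nearly equal, both treated libraries were higher, and the log2 fold change was 0.56 ± 0.26 (SE; edgeR adjusted p = 0.272), or 0.24 without treated replicate 1. It made up 42.2%, 39.0%, 40.3% and 42.7% of all mitochondrial mRNA counts, a share that overlapped between the groups. mt-Co2 (bases 7013 to 7696), which takes electrons from cytochrome c, had 84.4, 56.6, 140 and 79.1 CPM. Its treated replicate 2 lay between the saline libraries (log2 fold change 0.64 ± 0.32 SE, edgeR adjusted p = 0.307). mt-Co3 (bases 8607 to 9390) had 66.9, 59.3, 124 and 77.3 CPM, higher in both treated libraries with a log2 fold change of 0.67 ± 0.24 (SE; edgeR adjusted p = 0.202), or 0.29 without treated replicate 1.

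Complex V has the proton channel subunit mt-Atp6 and the small subunit mt-Atp8. mt-Atp6 had 749, 734, 2785 and 1198 counts. Both treated libraries were above both saline libraries, and the log2 fold change of 1.26 ± 0.36 (SE; edgeR adjusted p = 0.161), a 2.40-fold difference, was the largest positive one of the 21 tested mitochondrial genes. It was 0.57 without treated replicate 1 and 1.03 with the counts of its nuclear copy added, below mt-Rnr1 (0.77 and 1.05) in both cases. mt-Atp8, which is read from the same transcript, had 1, 0, 6 and 4 counts and was not tested. It shares 43 of its 204 bases with mt-Atp6, a stretch that the nuclear copy Gm10925 also holds. How reads in the overlap were assigned is not known. Both treated libraries had more mt-Atp8 counts than both saline libraries, at a depth where no fold can be given.

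**Figure D2:**
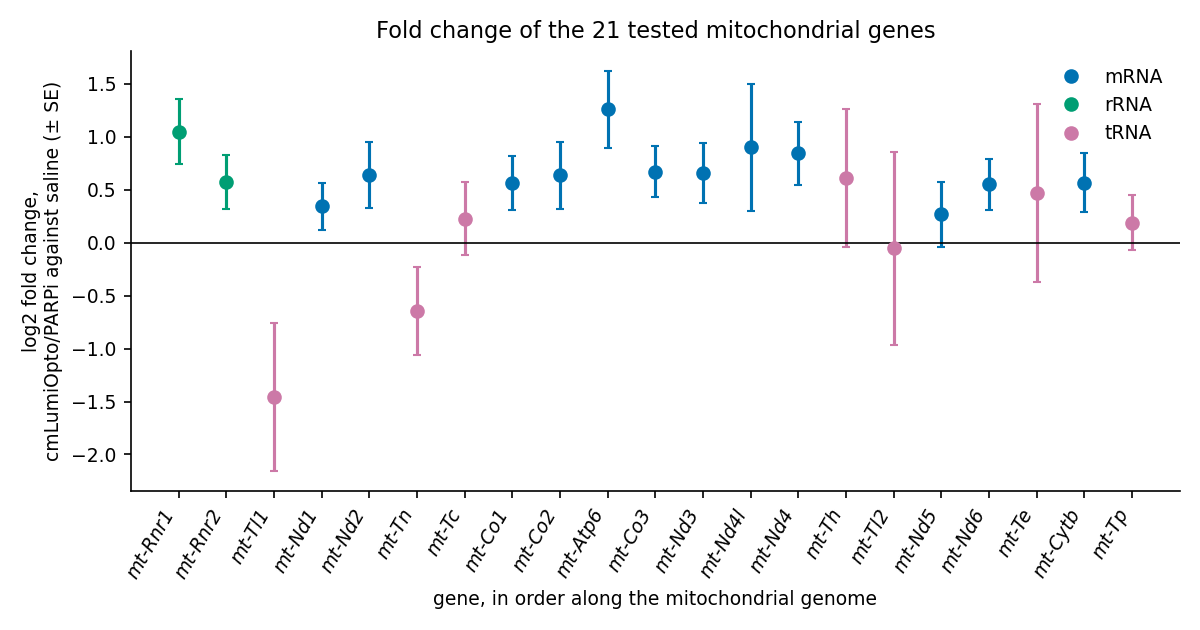
Log2 fold change of cmLumiOpto/PARPi against saline with its standard error for the 21 tested mitochondrial genes, in order along the genome and coloured by class. All 12 mRNA genes and both rRNA genes lie above 0, from 0.27 for mt-Nd5 to 1.26 for mt-Atp6, while the 7 tRNA genes run from -1.46 to 0.61, and none had an adjusted p under 0.05 in this edgeR fit (3 did with DESeq2).

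The rRNA genes code for the RNA cores of the small and large subunits of the mitochondrial ribosome. mt-Rnr1 (12S, bases 70 to 1024) had 169 and 97.6 CPM after saline and 323 and 228 CPM after treatment, and mt-Rnr2 (16S, bases 1094 to 2675) had 219 and 170 CPM against 353 and 226 CPM. In both, the treated libraries were higher than the saline libraries. The log2 fold change was 1.05 ± 0.30 (SE; edgeR adjusted p = 0.162) for mt-Rnr1 and 0.57 ± 0.25 (SE; edgeR adjusted p = 0.262) for mt-Rnr2, and 0.77 and 0.22 without treated replicate 1. Within libraries, the ratio of mt-Rnr1 to mt-Rnr2 counts was 0.768 and 0.576 after saline and 0.915 and 1.01 after treatment. The ratio was thus higher in both treated libraries, by 0.53 on the log2 scale (exact two-sided permutation p = 0.3333, the smallest possible), although the saline libraries also differed from each other. The ratio of rRNA to mRNA counts was 0.0352, 0.0225, 0.0330 and 0.0353, where only saline replicate 2 stood apart.

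The tRNA genes were read sparsely. Of all tRNA counts, 45.4% came from mt-Tp, the proline tRNA, and 78.4% from mt-Tp, mt-Tc and mt-Tn (the cysteine and asparagine tRNAs), which all lie on the strand opposite to most genes. The 2 tRNA genes with the most counts are shown whole beside mt-Tf, the phenylalanine tRNA, which had 0 counts in every library. mt-Tp lies at chrM:15356-15422 on the minus strand, mt-Tc at chrM:5192-5257 on the minus strand and mt-Tf at chrM:1-68 on the plus strand. They are all printed in the direction of the gene, with no capitals.
mt-Tp: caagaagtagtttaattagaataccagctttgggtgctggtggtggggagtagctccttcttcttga
mt-Tc: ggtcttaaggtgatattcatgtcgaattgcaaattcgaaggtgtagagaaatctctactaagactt
mt-Tf: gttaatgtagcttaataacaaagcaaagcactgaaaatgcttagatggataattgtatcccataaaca

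mt-Tp had 209, 164, 282 and 191 counts and mt-Tc had 99, 96, 162 and 93, with overlapping groups and log2 fold changes of 0.19 ± 0.26 (SE) and 0.23 ± 0.35 (SE). mt-Tn (bases 5089 to 5159) had 53 and 43 counts after saline and 40 and 28 after treatment. It was lower in both treated libraries, with a log2 fold change of -0.65 ± 0.41 (SE; edgeR adjusted p = 0.404). mt-Tl1 (bases 2676 to 2750), a leucine tRNA between mt-Rnr2 and mt-Nd1, had 18, 31, 15 and 5 counts. It too was lower in both treated libraries, at -1.46 ± 0.70 (SE; edgeR adjusted p = 0.292), while the rRNA before it in the genome was higher in both. The histidine, leucine and glutamate tRNAs mt-Th, mt-Tl2 and mt-Te had 5 to 41 counts per library and overlapping groups. For mt-Tl2 the saline libraries differed more than the groups did, with 7 and 41 counts.

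The 15 tRNA genes that did not pass the filter summed to between 12 and 45 counts per library. Among them, 5 (mt-Tf, mt-Tv, mt-Td, mt-Tk and mt-Tg) had 0 counts in all 4 libraries, which allows up to 3 counts in each. Of the 16 mitochondrial genes left untested, 9 never reached 3 counts in any library, these 5 included. The ratio of tRNA to mRNA counts was 0.00235 and 0.00253 after saline and 0.00179 and 0.00173 after treatment. It was lower in both treated libraries, by 0.47 on the log2 scale (exact two-sided permutation p = 0.3333), and the difference ranged from -0.52 to -0.42 with each library left out. Unlike the summed share, this ratio did not separate treated replicate 1 from treated replicate 2.

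Compared per length, the mRNA and rRNA genes spanned a wide range of levels. In the saline libraries mt-Co1 stood highest at 3010 ± 9.41 CPM per kilobase (SD, n = 2). mt-Cytb at 1788 ± 167 and mt-Nd1 at 1710 ± 155 CPM per kilobase followed close together, with mt-Cytb the higher in every library. mt-Nd2 came next with 781 ± 63.0 CPM per kilobase. mt-Nd5 at 579 ± 90.4, mt-Nd4 at 566 ± 33.0 and mt-Nd6 at 538 ± 51.0 CPM per kilobase lay close together. Of these, mt-Nd5 and mt-Nd4 changed order between the saline libraries. The rRNA genes lay lower, mt-Rnr1 at 139 ± 52.5 and mt-Rnr2 at 123 ± 22.3 CPM per kilobase, as recovered by poly-T selection. The lowest of the mRNA and rRNA genes were mt-Co2 at 103 ± 28.8, mt-Co3 at 80.5 ± 6.88, mt-Atp6 at 71.2 ± 3.16 and mt-Nd3 at 52.1 ± 1.19 CPM per kilobase, with mt-Nd4l at 11.2 ± 2.37 and mt-Atp8 at 0.154 ± 0.217 CPM per kilobase at the end. Among the tRNA genes, mt-Tp stood at 181 ± 20.4 CPM per kilobase, above the mean of either rRNA gene, and mt-Tl1 at 21.6 ± 9.27. mt-Co1, mt-Cytb, mt-Nd1 and mt-Nd2 held this order in all 4 libraries.

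The 5 mRNA genes that are nearly wholly covered by a near-identical nuclear copy were those with the lowest levels per length among the 12 tested. They lay between 11.2 and 103 CPM per kilobase in the saline libraries, where the 5 tested genes with no such copy lay between 538 and 1788 CPM per kilobase. Only annotated transcripts were searched, so a copy outside them would have been missed. Across the 12 genes, the share of the gene in a near-identical copy went with a lower level per length (Spearman's rho = -0.754) and with a larger log2 fold change (rho = 0.798). Gene length gave a rho of -0.476 with the fold change, GC content 0 and position -0.028. These are descriptions over 12 genes of the same 4 libraries that share transcripts and precursors, and genes are not independent replicates. Log2 fold changes ran from 0.27 to 0.64 for the genes with no near-identical copy and from 0.64 to 1.26 for those with a copy over nearly the whole gene.

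**Figure D3:**
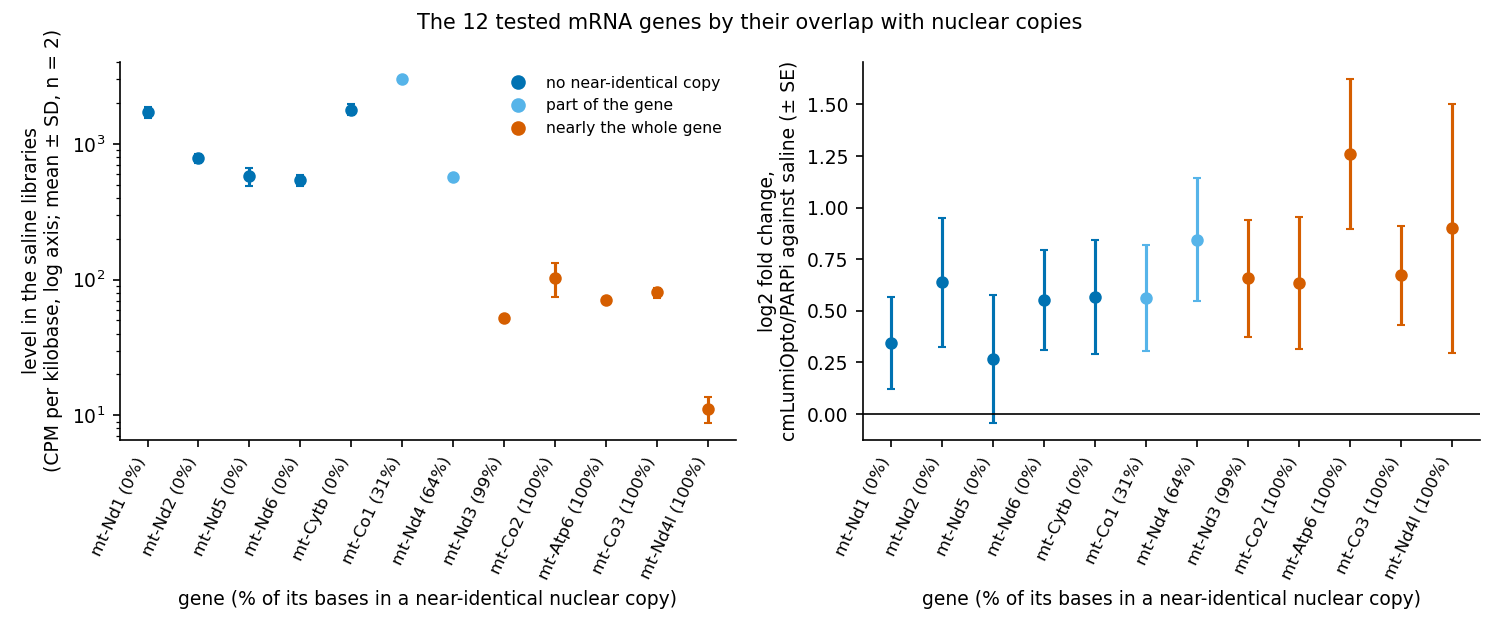
The 12 tested mRNA genes sorted by the share of their bases that lies in a nuclear copy of at least 99% identity, with the mean level in the saline libraries (left, CPM per kilobase, log axis, SD, n = 2) and the log2 fold change (right, with its standard error). The 5 genes at the right of each panel, covered over 98%, have the lowest levels per length, and the largest fold change, that of mt-Atp6, is among them.

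The copies themselves had counts. Gm10925, the copy of mt-Atp6, had 736, 706, 1664 and 1023 counts, or 98.3%, 96.2%, 59.7% and 85.4% of those of mt-Atp6. So the 2 places had almost the same number of counts in the saline libraries, and fewer on the nuclear copy than on the mitochondrial gene in the treated libraries. Gm28437 had 662, 596, 1533 and 878 counts, 62.0% to 71.2% of those of mt-Co3. Gm28661 had 423, 473, 1108 and 612 counts, 31.4% to 57.0% of those of mt-Co2. Gm10222 had 92.1% to 123% of the counts of mt-Nd4l.

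Counts on all 7 near-identical copies were highest in treated replicate 1, as those on the mitochondrial genes were. Their log2 fold changes lay between 0.68 and 0.90, with adjusted p between 0.168 and 0.470 by edgeR. The other 8 copies, less alike in sequence and on other chromosomes, had at most 24 counts in a library. Together the 15 copies took 0.0153%, 0.0162%, 0.0363% and 0.0206% of all counts. When the counts of each copy were added to its mitochondrial gene, the log2 fold change of mt-Atp6 went from 1.26 to 1.03 and that of mt-Nd4l from 0.90 to 0.79. Those of mt-Co2 (0.68), mt-Co3 (0.72) and mt-Nd3 (0.74) were then slightly larger, and no gene passed the threshold with edgeR.

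**Figure D4:**
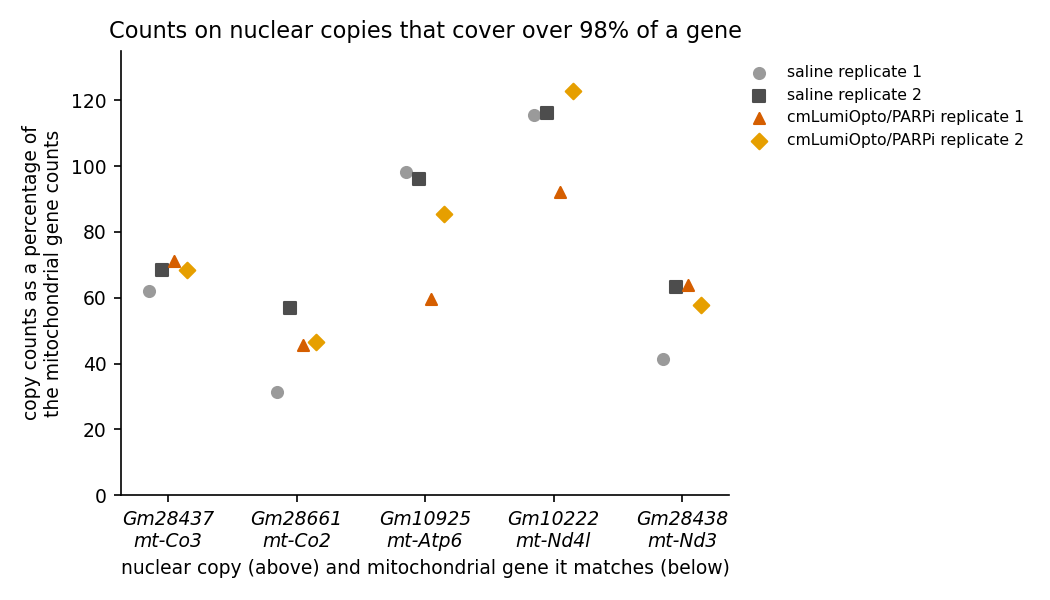
Counts on the 5 nuclear copies that cover over 98% of a mitochondrial gene, as a percentage of the counts on that gene, in each library. Gm10925 runs from 59.7% to 98.3% of mt-Atp6 and is lowest in cmLumiOpto/PARPi replicate 1, and Gm10222 exceeds mt-Nd4l in 3 of 4 libraries.

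The spread between the treated libraries set the precision of these values. For the 14 tested mRNA and rRNA genes, treated replicate 1 exceeded treated replicate 2 by 0.49 to 1.68 on the log2 scale, and in 11 of the 12 mRNA genes that gap was larger than the log2 fold change itself. The saline libraries differed by -0.42 to 0.79. Against the mean of the saline libraries, the median difference of the 12 mRNA genes was 0.98 in treated replicate 1 and 0.19 in treated replicate 2, and 12 and 10 of the 12 genes, respectively, were above that mean. Other RNAs were also highest in treated replicate 1. RNAs that stay in the nucleus (Malat1, Neat1, Kcnq1ot1, Xist and Meg3) summed to 118, 153, 527 and 237 CPM, higher in both treated libraries and highest in treated replicate 1, with Neat1 as the largest part there (338 CPM) and Kcnq1ot1 not following that order. The sum of the alveolar type 2 markers, all 8 detected in every library and led by Sftpc, was also highest there, although Abca3 was lower in both treated libraries (147, 129, 125 and 94.0 CPM). The same held for the sums of endothelial markers (496 and 363 against 777 and 377 CPM summed) and T-cell markers (51.6 and 20.2 against 103 and 30.2 CPM summed). Their part in the mitochondrial result was not tested. Airway club cell markers summed to 1152, 82.7, 5695 and 3197 CPM and ciliated cell markers to 6.27, 2.52, 24.6 and 15.9 CPM, with Dnah5 and Sntn at 0 in saline replicate 2. The club cell sum was led by Scgb1a1. In treated replicates 1 and 2, Scgb3a1 had 14.3 and 143 CPM, Bpifa1 1.84 and 63.1 CPM and Bpifb1 0.69 and 15.4 CPM. These 3 club cell markers, and Tekt1 of the ciliated list, were highest in treated replicate 2. The part of the airway markers was not tested either.

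Markers of muscle and brown fat, tissues rich in mitochondria, were mostly near 0. Of the heart muscle list, Tnnt2 alone stood at 96.5, 89.9, 59.6 and 144 CPM. The others were at 4.21 CPM or less in every library, with Actc1 highest in treated replicate 1 (3.74 CPM), Nppa at 0 in 3 libraries and Myl7 and Sln at 0 in 2. Skeletal muscle markers were lowest in saline replicate 2, at a sum of 10.3 CPM, and were at 12.8 CPM in treated replicate 1, with 2 or 3 of 8 at 0 in each library. Of the brown fat list, Dio2 stood at 95.4 and 109 CPM after saline and 62.8 and 55.96 CPM after treatment and made up nearly the whole sum. Ucp1, the defining marker, was at 0.41 CPM or less, and Cidea had 0, 0, 5 and 4 counts. Neutrophil markers (580 to 1669 CPM), macrophage markers (922 to 1205 CPM) and red blood cell markers (356 to 1239 CPM) did not have their highest sum in treated replicate 1.

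The nuclear genes that replicate, transcribe and process the mitochondrial genome were all measured well enough to test. Of the 95 genes of these lists, 0 passed an adjusted p of 0.05 in the main edgeR fit, against 1 with DESeq2, which called 7.32% of all genes. At an unadjusted p under 0.05, 11 of the 95 were higher after treatment and 0 lower, where 9.21% of all tested genes were higher and 12.0% lower, so the share of higher genes was near that of all genes. The median log2 fold change of the 95 was 0.17, beside 0.02 over all tested genes. The count of 11 became 6, 4, 2 and 7 without saline replicate 1, saline replicate 2, treated replicate 1 and treated replicate 2. By role, 2 of 16 genes of mitochondrial DNA maintenance were among them (median log2 fold change 0.24), 2 of 10 of transcription (0.30), 5 of 31 of RNA processing and ribosome maturation (0.09), 1 of 16 of tRNA modification (0.28) and 1 of 22 tRNA synthetase genes and their amidotransferase partners (0.05).

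The core of the transcription apparatus differed by less than its spread between libraries. Polrmt, the mitochondrial RNA polymerase, had 24.1, 16.9, 25.8 and 22.9 CPM (log2 fold change 0.25 ± 0.23 SE). Tfam, which packs and bends the DNA at the promoters, had 40.7, 46.2, 44.2 and 47.4 CPM (0.08 ± 0.15), and Tfb2m, which opens the promoter, 20.8, 26.2, 18.3 and 21.8 CPM (-0.23 ± 0.21). Twnk, the replicative helicase, had 42.1, 33.0, 36.3 and 37.8 CPM (-0.02 ± 0.18). None of these had groups that stood apart. Lrpprc, which with Slirp stabilizes mitochondrial mRNAs, had 73.9 and 92.0 CPM after saline and 59.5 and 66.4 CPM after treatment. It was lower in both treated libraries, with a log2 fold change of -0.40 ± 0.16 (SE; edgeR adjusted p = 0.236). Slirp itself had only 23 to 49 counts and overlapping groups.

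The genes named by the smallest p in each role were all higher in both treated libraries. They were taken at an unadjusted p under 0.05 with edgeR, where 0 of the 95 genes were lower. Over all 95, both treated libraries were higher in 34 genes and lower in 16, against 27.4% and 27.8% of all tested genes. Dguok, a kinase that supplies deoxynucleotides for mitochondrial DNA, had 15.5, 16.4, 29.2 and 24.1 CPM (log2 fold change 0.74 ± 0.19 SE, edgeR adjusted p = 0.145), and Polg, the DNA polymerase, 30.9, 25.8, 40.6 and 37.3 CPM (0.46 ± 0.17). Mrpl12, a ribosomal protein that also binds the polymerase, had 77.3, 75.6, 117 and 117 CPM (0.62 ± 0.12 SE, edgeR adjusted p = 0.138), and Mterf3 12.2, 10.4, 20.4 and 15.2 CPM (0.66 ± 0.25). Rexo2, a nuclease for short RNAs, had 50.3, 46.5, 70.3 and 71.5 CPM (0.55 ± 0.13), and Trmt10c, a subunit of the enzyme that cuts the 5′ ends of the tRNAs, 255, 245, 407 and 368 counts (0.48 ± 0.18). Gtpbp3, which modifies mitochondrial tRNAs, and Hars2, the histidyl-tRNA synthetase, had log2 fold changes of 0.59 ± 0.18 and 0.50 ± 0.19. For Mrpl12 and Rexo2 the treated libraries lay close together, unlike those of the mitochondrial genes.

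Nuclear genes for subunits of the same 4 complexes had similar summed levels in both treated libraries, though single genes such as Ndufa12 (7.66 and 24.2 CPM) did not. Of 78 genes 77 were tested, and 0 passed an adjusted p of 0.05 in the main edgeR fit and 21 with DESeq2, beside 7.32% of all genes. At an unadjusted p under 0.05, 50 were higher after treatment and 0 lower, against 9.21% and 12.0% of all tested genes. The 50 comprised 24 of 36 tested in complex I, 5 of 9 in complex III, 12 of 15 in complex IV and 9 of 17 in complex V. The count of 50 became 26 without saline replicate 1, 32 without saline replicate 2 and 31 without treated replicate 1. Their median log2 fold change was 0.48. Uqcrh and Uqcrq of complex III had the smallest p. Uqcrh, the hinge subunit, had 103, 101, 195 and 180 CPM (log2 fold change 0.88 ± 0.13 SE, edgeR adjusted p = 0.138) and Uqcrq 53.1, 51.7, 92.2 and 97.8 CPM (0.86 ± 0.13). Ndufb8 and Ndufa2 of complex I had log2 fold changes of 0.68 ± 0.13 and 0.69 ± 0.14, Ndufa4 and Cox6c of complex IV 0.66 ± 0.15 and 0.56 ± 0.13, and Atp5e and Atp5md of complex V 0.83 ± 0.16 and 0.74 ± 0.16.

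Against the saline mean, the median of the nuclear subunit genes was 0.49 in treated replicate 1 and 0.45 in treated replicate 2, where that of the mitochondrial mRNA genes was 0.98 and 0.19. The summed level of the nuclear subunit genes was 8225, 8313, 10224 and 10649 CPM and that of the mitochondrial mRNA genes 11033, 11887, 20529 and 12840 CPM. The ratio of mitochondrial to nuclear mRNA for these complexes was therefore 1.34, 1.43, 2.01 and 1.21. Treated replicate 1 had the highest and treated replicate 2 the lowest ratio of all libraries, so the groups overlapped. The mean difference was 0.17 on the log2 scale (exact two-sided permutation p = 1), and -0.20 without treated replicate 1.

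**Figure D5:**
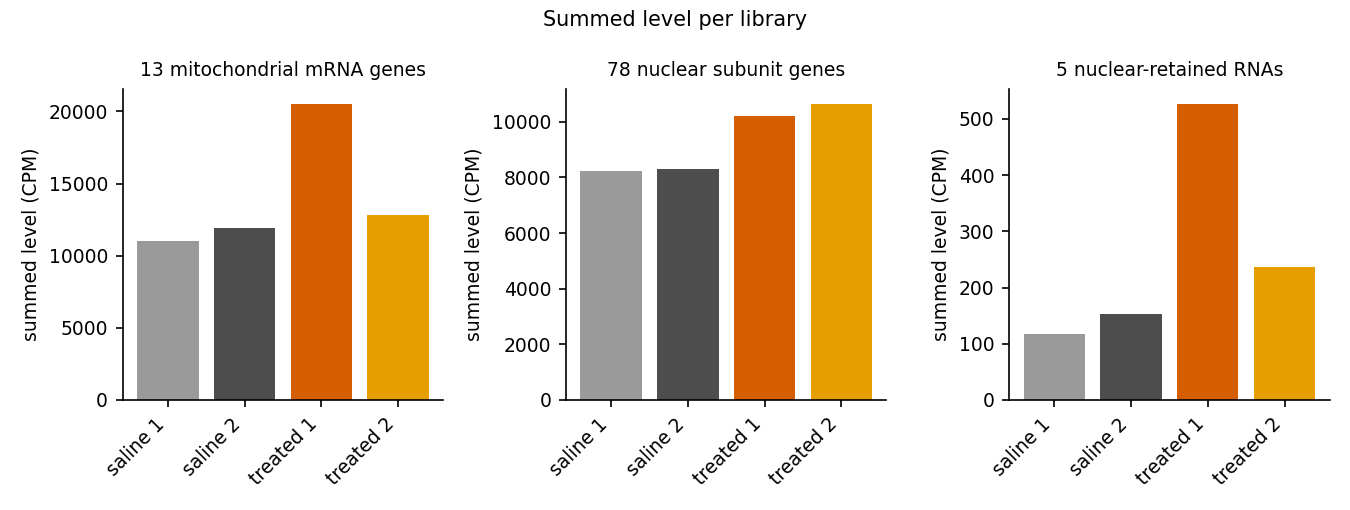
Summed level in CPM per library (treated stands for cmLumiOpto/PARPi) of the 13 mitochondrial mRNA genes, the 78 nuclear genes for subunits of complexes I, III, IV and V, and 5 nuclear-retained RNAs. The treated libraries are 20529 and 12840 CPM for the mitochondrial genes and 10224 and 10649 CPM for the nuclear subunit genes, and the nuclear-retained RNAs have their highest sum, 527 CPM, in treated replicate 1.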

How the data were processed

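Bulk RNA of 4 libraries was analysed. The authors purified mRNA on poly-T beads, sequenced it on an Illumina platform, mapped it with HISAT2 and deposited raw read counts per gene, not normalized, in 1 table that also gives where each gene lies, its length and its biotype. The counting program and its treatment of reads with several matches were not given in the sources used here, nor was the use of strand. Every column of per-library values in the table was used. From the counts, all 15167 genes kept by filterByExpr (minimum count 10) were fitted in edgeR 4.0.16 on R 4.3.3 (TMM, glmQLFit, glmQLFTest, Benjamini-Hochberg adjustment over all tested genes, threshold 0.05), without covariates. A standard error is the log2 fold change divided by the square root of F. CPM used TMM-scaled totals, and shares used raw totals. Depth of 15263375 to 16755228 counts per library set the counting precision. Shares and count ratios were compared by exact two-sided permutation over libraries (SciPy 1.17.1). Nuclear copies were found with BLAST 2.17.0 among GENCODE M21 transcripts. The fit was also run on simulated counts with equal dispersion for all genes and changes larger than those of the mitochondrial genes. That run does not show how the fit performs on these libraries.

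Named were all mRNA and rRNA genes, the tested tRNA genes, the nuclear copies with the most counts or a near-identical sequence, in each list of nuclear genes at most the 2 with the smallest p in each direction below 0.05, and Polrmt, Tfam, Tfb2m, Lrpprc, Slirp and Twnk. Copies beyond the 3 with the most counts, single markers, Ndufa12 and the untested genes were named after their values were seen. The genes and lists were chosen with earlier results of these data known. Alternatives were DESeq2 1.42.0, its size factors, library totals, nuclear genes for scaling, no filter, another quasi-likelihood option, the replicate number as a term, each library left out, copies added and a protein-coding denominator.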

Additional observations from a re-analysis of the deposited data

How the results depend on the processing

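With 2 libraries per group, depth limited mainly the tRNA genes, mt-Atp8 and mt-Nd4l. In the main edgeR fit, 0 genes had an adjusted p under 0.05. DESeq2, edgeR with no filter on low counts and edgeR with the replicate block gave 3, 7 and 5 among the mitochondrial genes. The same 3 settings gave 1, 2 and 4 among the nuclear genes of mitochondrial expression, and 21, 23 and 32 among the nuclear subunit genes. Those settings called 7.32%, 7.86% and 12.0% of all genes. Libraries with the same number come from different mice, and their deviations had a Spearman's rho of 0.298 across 15167 genes, so the replicate block shows only how the counts move. At an unadjusted p under 0.05, the 4 higher mitochondrial genes became 11, 12 and 9 under the same 3 settings, and 0 lower became 1 with no filter. The 11 higher expression genes became 6 with DESeq2, and 0 lower became 1 when scaled on nuclear genes, 2 with no filter and 2 with the replicate block. On library totals alone the median log2 fold change of the expression genes was 0.23 and that of the nuclear subunit genes 0.55, and with no filter the former was 0.16.

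Leaving out each library in turn gave 2 to 14 higher and 0 to 1 lower mitochondrial genes with a median of 0.13 to 0.95, 2 to 7 higher and 0 to 3 lower expression genes with a median of 0.098 to 0.15, and 26 to 40 higher nuclear subunit genes with a median of 0.43 to 0.50. The tRNA share difference ran from -0.000496 to 0.00108 percentage points. Log2 ratio differences ran from -0.54 to 0.32 for mt-Nd4l to mt-Nd4, -0.038 to 0.025 for mt-Nd6 to mt-Cytb, -0.028 to 0.060 for mt-Nd6 to heavy-strand mRNA, -0.043 to 0.60 for rRNA to mRNA, -0.090 to 0.11 for mt-Co1 to mt-Cytb and -0.20 to 0.54 for mitochondrial mRNA to nuclear subunits. Single genes that changed sign had log2 fold changes of -0.19 to 0.53 (mt-Tc), -0.20 to 1.495 (mt-Nd4l), -0.23 to 0.62 (mt-Nd5), -0.57 to 1.44 (mt-Te), -0.081 to 0.40 (mt-Tp), -0.87 to 1.78 (mt-Tl2), -0.48 to 0.47 (Slirp), -0.028 to 0.15 (Tfam) and -0.20 to 0.15 (Twnk). The lowest of these for mt-Tc, mt-Nd4l, mt-Nd5, mt-Te, mt-Tp and Slirp came without treated replicate 1. On library totals mt-Tl2 had 0.032 and Twnk 0.043, and with the replicate block mt-Tl2 had 0.17. The cause was not tested. All other values kept their direction under the alternatives run, and 46 values of single genes passed the threshold under DESeq2, no filter or the replicate block. Chosen after seeing the data, the median of the tested members without a near-identical copy was 0.41, and the share difference of the 6 most counted mRNA genes not wholly covered by a copy was 0.560 percentage points.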
